A study of Mus musculus with 3 samples.

Results

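NRF2, the protein encoded by Nfe2l2, is the transcription factor through which animal cells raise their defences against oxidants and electrophiles. The genes described here are Nfe2l2 itself, its inhibitor gene Keap1 and 8 further genes of the pathway: Gclm, Gclc, Slc7a11, Txnrd1, Srxn1, Prdx1, Sqstm1 and Nqo1. These 10 genes, of 55536 in the tables, were chosen by symbol as known parts of the pathway, and each symbol was matched to 1 gene identifier. All 10 were counted in at least 1 library, as were 20685 genes of the whole annotation.

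The measurements come from total RNA sequencing, after depletion of ribosomal RNA, of RNA from the cytosol of bone-marrow-derived macrophages. These are primary phagocytes differentiated in culture from marrow of C57BL/6J mice. The data hold 1 group of 3 libraries (replicates 1 to 3), each from 1 µg of RNA: cells treated with lipid A, the part of endotoxin that Tlr4 senses, at 100 ng/ml for 12 hours, washed and left for 12 hours, then given 100 ng/ml again for 60 minutes. The labels give the cultures a common donor entry and do not say whether they came from separate animals, so every error below is the spread between these samples. Sex and age were not recorded. Cells without lipid A or with a single exposure were not analysed here, so the values are levels at this time and not responses to lipid A. In bulk RNA, fewer cells that express a gene and less RNA per cell cannot be told apart.

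In resting cells KEAP1, an adaptor of a Cullin-3 ubiquitin ligase, binds newly made NRF2 and directs it to the proteasome. Oxidants or electrophiles modify cysteines of KEAP1, NRF2 then accumulates, pairs with a small Maf protein and binds antioxidant response elements near its target genes. SQSTM1 (p62), a cargo receptor of autophagy, binds KEAP1 and can also free NRF2. Much of this control acts on proteins, which RNA levels do not show. In macrophages the pathway is known for limiting oxidant damage during the respiratory burst and for restraining inflammatory cytokine genes.

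The 3 libraries held 50807046, 53364168 and 46546422 expected counts on genes in replicates 1, 2 and 3. A limit of 3 counts, which covers counting error only, corresponds to a CPM (a count relative to the library's total) of 0.0591, 0.0562 and 0.0645. The libraries also differed in RNAs outside the pathway. Of 10 macrophage marker genes all stood above 1 TPM, at a summed level of 4978 to 6589 TPM per library, while 0 of 8 stromal, 7 T and NK cell, 5 B cell, 6 erythroid and 5 dendritic cell markers did, and 3 of 8 neutrophil markers did at a summed level of 9.19 to 11.1 TPM. Summed stromal markers were 0.13, 7.48 and 3.47 TPM in replicates 1, 2 and 3, with the collagen genes Col1a1 and Col3a1 listed at 0 TPM in replicate 1. Of 10 nuclear non-coding RNAs, 4 had a mean of at least 1 TPM, and 3 of these were highest in replicate 3, where Malat1 had 452 TPM, against 112 and 90.6 TPM in replicates 1 and 2. Neat1 was likewise at 29.7 TPM there, against 10.9 and 7.1 TPM, and Rn7sk at 68232 TPM, against 27778 and 26912 TPM. The fourth, Tug1, was highest in replicate 1, with 22.75, 15.8 and 16.9 TPM in replicates 1, 2 and 3. TPM divides counts by effective transcript length and scales them to a fixed total, so levels can be compared between genes, but that total is shared with very abundant small RNAs. Among genes with a mean of 1 TPM or more, the median TPM deviated by 0.13, −0.04 and −0.10 on the log2 scale from each gene's own mean in replicates 1, 2 and 3.

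Of the 10 pathway genes, 8 stood above 1 TPM, 1 (Nqo1) stood below it and 1 (Slc7a11) could not be placed. Each gene was tested against 1 TPM by limma on log2(TPM + 1) with Benjamini-Hochberg adjustment over all 20685 genes, of which 44.5% stood above and 50.4% below. The median of the 10 mean levels was 16.8 TPM, against 0.68 TPM over all genes tested. The 10 genes are protein-coding, whereas the genes tested include non-coding ones, so these sets are unlike.

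**Figure D1:**
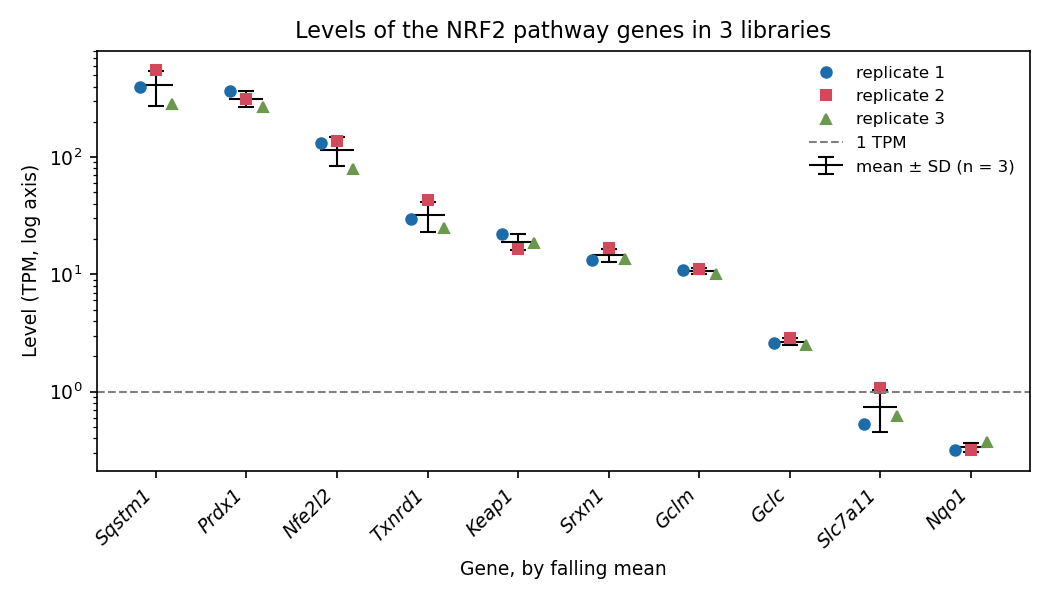
Level of each of the 10 genes (TPM, log axis) in replicate 1 (circles), replicate 2 (squares) and replicate 3 (triangles), ordered by falling mean. Horizontal bars with whiskers are the mean ± SD (n = 3) and the dashed line marks 1 TPM. Sqstm1 and Prdx1 lie between 270 and 555 TPM in every library, and Nqo1 lies below 0.4 TPM in all 3.

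The regulators were expressed at unequal levels. Nfe2l2 (ENSMUSG00000015839.6, chr2:75675513-75704641 of mm10, minus strand) had 131.6, 136 and 78.9 TPM in replicates 1, 2 and 3, with 21961, 27882 and 14582 expected counts. Replicate 3 was the low library and the other two lay close together, for a mean of 115.5 ± 31.8 TPM (SD, n = 3), in the 97.9th percentile of genes tested (limma against 1 TPM, adjusted p = 6e-08). Keap1 (ENSMUSG00000003308.15, chr9:21229730-21239361, minus strand) had 22.1, 16.6 and 18.5 TPM, a mean of 19.1 ± 2.82 TPM, and was lowest in replicate 2. Nfe2l2 therefore exceeded Keap1 in every library, by 5.95-, 8.2- and 4.27-fold on TPM, with a log2(TPM + 1) difference of 2.51 ± 0.46 (SD, n = 3).

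Sqstm1 (ENSMUSG00000015837.15, chr11:50199366-50210827, minus strand) was the highest of the 10. It had 394.8, 555.4 and 283.6 TPM and ranked 85th by mean TPM among genes tested. Its libraries spread by 1.96-fold, replicate 2 being the high one and replicate 3 the low one. Its ratio to Keap1, whose protein it binds, was 17.9, 33.5 and 15.4 on TPM, since replicate 2 held the highest Sqstm1 and the lowest Keap1. On the log2(TPM + 1) scale the difference was 4.32 ± 0.59 (SD, n = 3).

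Cystine import can feed glutathione synthesis, and glutamate cysteine ligase acts in it. The 3 genes of this arm among the 10 stood below the regulators in every library. Slc7a11 (ENSMUSG00000027737.10, chr3:49892526-50443614, minus strand), the light chain of the cystine and glutamate exchanger, had 0.53, 1.08 and 0.62 TPM from 322, 852 and 348 expected counts. Replicate 2 lay at about the tested level and replicates 1 and 3 below it. The gene was not placed (log2(TPM + 1) difference from 1 TPM of −0.21, SE 0.1, limma adjusted p = 0.084). It stood below 1 TPM in 3 alternatives. It did so without replicate 2, at −0.35 (limma, adjusted p = 0.017), and in the second tables, at −0.53 (limma, adjusted p = 0.0052). The third was a pseudocount of 0.1, at −0.44 on log2(TPM + 0.1) (limma, adjusted p = 0.05 when rounded). Rescaling TPM over nuclear protein-coding genes raised all of them in a library by the same factor. On that scale Slc7a11 stood above 1 TPM, at 0.76 (limma, adjusted p = 0.0036). Its partner Slc3a2, the heavy chain shared with other amino acid exchangers, had 152, 137 and 143 TPM.

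The catalytic subunit gene of the ligase, Gclc (ENSMUSG00000032350.9, chr9:77754535-77794485, plus strand), had 2.59, 2.87 and 2.52 TPM. The modifier subunit gene Gclm (ENSMUSG00000028124.15, chr3:122245557-122270732, plus strand), whose product raises the activity of the catalytic subunit, had 10.8, 11.2 and 10 TPM. By TPM over all entries both were among the steadiest of the 10, with a coefficient of variation over libraries of 6.96% for Gclc and 5.72% for Gclm. This depended on the scale. For TPM over coding genes the log2 range was 0.30 for Gclm and 0.40 for Gclc, against 0.13 for Prdx1 and 0.23 for Keap1. Gclm exceeded Gclc in each library, by 4.18-, 3.9- and 3.97-fold on TPM, with a log2(TPM + 1) difference of 1.67 ± 0.04 (SD, n = 3), the narrowest spread of the 4 pairs compared.

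That ratio depends on transcript length. In expected counts, which are not divided by length, Gclm exceeded Gclc only 1.8-, 1.62- and 1.715-fold. Much of the Gclm abundance was assigned to short transcripts, as described below. In the second set of transcript tables, made by the authors with another column layout, Gclc was not placed. It lay at 0.14 from 1 TPM on the log2(TPM + 1) scale (limma, adjusted p = 0.14).

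The thioredoxin and peroxiredoxin arm was higher. Prdx1 (ENSMUSG00000028691.12, chr4:116685544-116700822, plus strand), a peroxidase that reduces hydrogen peroxide, had 365.9, 312.2 and 269.7 TPM, a mean of 316 ± 48.2 TPM and rank 108 among genes tested. Txnrd1 (ENSMUSG00000020250.10, chr10:82833951-82897712, plus strand), the cytosolic reductase that recharges thioredoxin with NADPH, had 29.5, 42.8 and 24.8 TPM. Srxn1 (ENSMUSG00000032802.8, chr2:152105516-152111376, plus strand), sulfiredoxin, which repairs overoxidised peroxiredoxins, had 13.25, 16.7 and 13.6 TPM.

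In all 3 libraries the RNA of the peroxidase gene Prdx1 was higher than that of Txnrd1 and of Srxn1. Enzyme amounts were not measured. Txnrd1 exceeded Srxn1 in each, by 2.23-, 2.57- and 1.82-fold on TPM with a log2(TPM + 1) difference of 1.08 ± 0.25 (SD, n = 3). Both were highest in replicate 2, whereas Prdx1 was highest in replicate 1 by TPM.

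Nqo1 (ENSMUSG00000003849.8, chr8:107388225-107403206, minus strand), the quinone reductase that is often used as a readout of NRF2 activity, was the lowest of the 10. It had 0.32, 0.32 and 0.37 TPM, from 32, 39 and 41 expected counts, and lay at the 45.1th percentile of genes tested. The libraries lay within 0.05 TPM of each other and all below the level (log2(TPM + 1) difference from 1 TPM of −0.58, SE 0.06, limma adjusted p = 2.8e-05). After rescaling over nuclear protein-coding genes it had 0.928, 1.11 and 1.35 TPM and was no longer placed (0.08, limma, adjusted p = 0.43). The expected counts are above the limit of 3 counts in each library, so the transcript was detected, at a low level.

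By mean level the genes ran from Sqstm1 over Prdx1, Nfe2l2, Txnrd1, Keap1, Srxn1, Gclm, Gclc and Slc7a11 to Nqo1, a range of 1222-fold. Of the 9 neighbouring pairs in this order, 7 had library ranges that did not overlap. The exceptions were Sqstm1 and Prdx1, with Sqstm1 higher in 3 of 3 libraries by only 1.08-, 1.78- and 1.05-fold, and Keap1 and Srxn1, with Keap1 higher in 2 of 3 libraries. The order by mean was the same in the second tables, after rescaling over coding genes, and with each library left out in turn. The pairs without overlap numbered 6 in the second tables and 6 after rescaling. With replicate 1, 2 or 3 left out they numbered 7, 8 and 8. No test of the order over libraries was made, since an exact two-sided sign-flip test of 3 libraries cannot go below p = 0.25.

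Between libraries, 9 of the 10 genes varied by more than counting noise, where 69.3% of 13075 genes tested did so (chi-square test with 2 degrees of freedom on expected counts, Benjamini-Hochberg adjusted p under 0.05). The share over all genes is high as well, so variation beyond counting does not set these genes apart. Nqo1, with the fewest counts, was not called (chi-square, adjusted p = 0.4). Gclm was called at an adjusted p of 0.0017 and not under TMM scaling, which left 8 of the 10. The sizes were unequal. By TPM, the highest library exceeded the lowest by 2.04-fold for Slc7a11, 1.96-fold for Sqstm1, 1.73-fold for Txnrd1 and 1.72-fold for Nfe2l2. For the other 6 it did so by 1.12- to 1.36-fold. In TMM-scaled CPM these values were 2.41-, 1.93-, 1.68- and 1.69-fold, and 1.11- to 1.38-fold for the other 6. Without replicate 2, Keap1, Txnrd1 and Slc7a11 were not called either, without replicate 1 Gclm and Gclc were not, and without replicate 3 Prdx1 was not.

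Replicate 2 was the high library for most of the 10 genes. By TPM, 7 of the 10 genes were highest there: Nfe2l2, Gclm, Gclc, Txnrd1, Srxn1, Slc7a11 and Sqstm1. Among the 8 with a mean TPM of at least 1 it was 6, where 21.1% of 9774 such genes were highest in replicate 2 and 67.8% in replicate 1. The comparison depends on the scale for genes at large. Of the same 8, 6 were highest in replicate 2 in CPM, beside 39.6% of such genes, and 6 in TMM-scaled CPM, beside 36%. Over coding genes 7 of the 8 were, beside 39.4%. From the second set, 7 of the 8 were, where 65.1% of such genes were as well. Of all 10, the number highest there was 7 in CPM and TMM-scaled CPM, 8 over coding genes and 9 from the second set.

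The largest deviations in replicate 2 belonged to Slc7a11, at 0.61 above its own mean on the log2 scale of TPM, Sqstm1 at 0.49, Txnrd1 at 0.44 and Nfe2l2 at 0.28. Keap1 stood at −0.19 in replicate 2 and was lowest there on each of the 5 scales tried. Replicate 2 was also the library with the highest summed stromal markers (7.48 TPM) and the lowest summed macrophage markers (4978 TPM, against 6589 and 5051 TPM in replicates 1 and 3), of which 2 of 10 were highest there and 7 in replicate 1. Over coding genes replicate 2 was the highest library for 2 of these 10 markers and replicate 3 for 6. In replicate 3, the low library of Nfe2l2 and Sqstm1, the nuclear RNAs Malat1, Neat1 and Rn7sk were highest and Tug1 was not. The part of these differences in the pathway values was not tested.

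**Figure D2:**
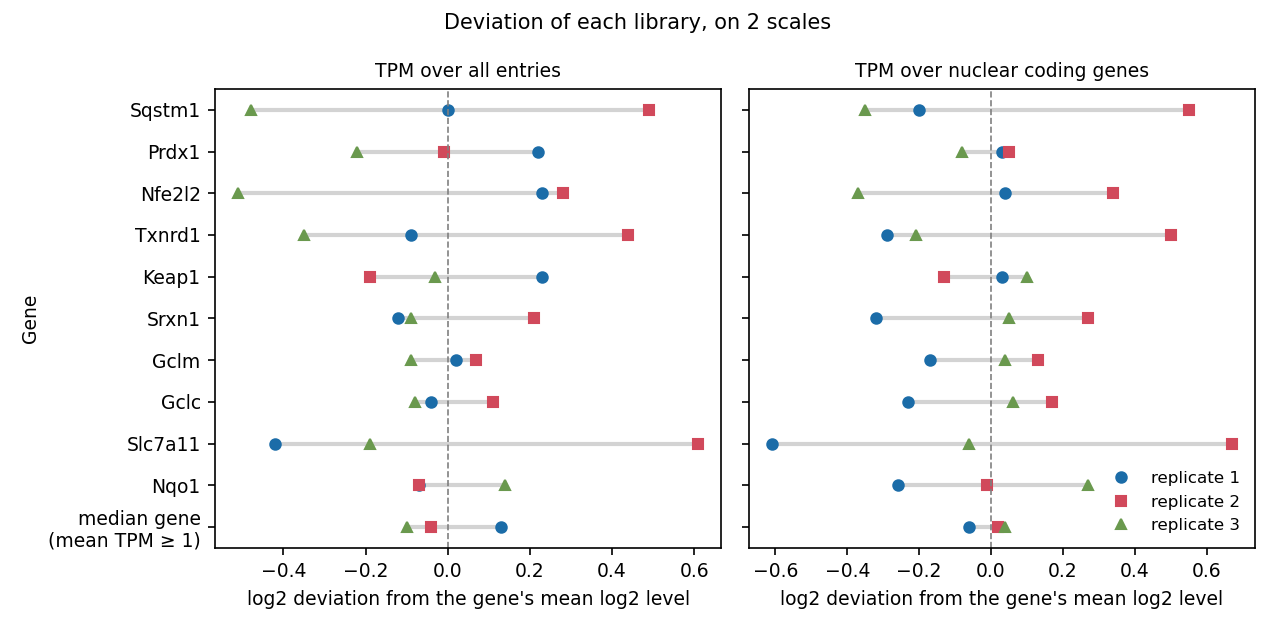
Deviation of each library from the gene's own mean log2 level, for TPM over all entries (left) and TPM rescaled over nuclear protein-coding genes (right), with the median of genes whose mean TPM is at least 1 in the bottom row. Replicate 2 (squares) is rightmost for 7 genes on the left and 8 on the right, and Keap1 has replicate 2 as its lowest library on both. On the left, the circle of Nqo1 lies under the square, as replicates 1 and 2 have the same TPM.

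The genes whose levels followed Nfe2l2 most closely over the 3 libraries were Clic4, Ccng2 and Plek, with root mean square differences of centred log2(TPM + 1) of 0.0148, 0.0165 and 0.0241. They were taken from 4131 genes whose mean TPM was at least 10, of which 66 lay within 0.1. Clic4, an intracellular chloride channel gene, had 130, 134 and 76.3 TPM, and Plek, which encodes the phagocyte and platelet protein pleckstrin, had 263, 283 and 160 TPM. Ccng2, a cyclin G gene, had 12.1, 12.9 and 6.97 TPM. This likeness over 3 libraries is given as a description. Among the pathway genes compared, Sqstm1 was the most like Nfe2l2, at 0.182 and rank 323, and Keap1 the least, at 0.378.

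The transcript tables divide each gene among annotated transcripts. The 10 genes have 48 transcripts, of which 41 had a share above 0 in some library, and in 9 genes a single transcript held over 50% of the abundance on average. In 9 genes the same transcript led in every library, and Gclm was the exception on both counts. The share of a gene's abundance in a transcript was taken as deposited, in percent.

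**Figure D3:**
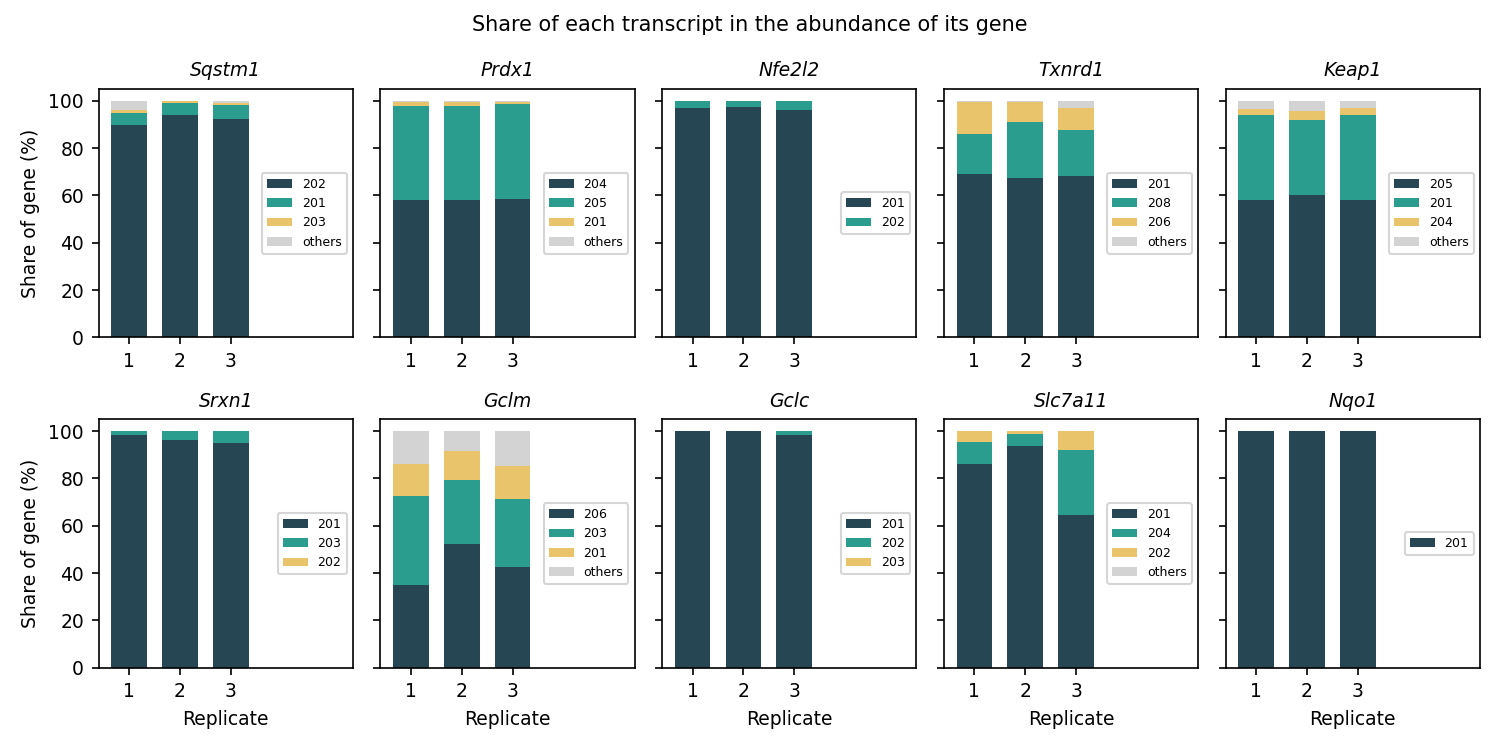
Share of each gene's abundance (percent, stacked) held by its 3 leading transcripts and by all others (grey), in replicates 1 to 3. Numbers in the legends are the transcript numbers of the GENCODE names. Nfe2l2, Srxn1, Gclc and Nqo1 are nearly all 1 transcript, Gclm and Prdx1 are divided, and Slc7a11 has its smallest share of transcript 201 in replicate 3.

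Nfe2l2 was carried by Nfe2l2-201, a coding transcript of 2475 bases in 5 exons, at 96.8, 97.4 and 96.3% in replicates 1, 2 and 3. Its other annotated transcript is not coding. Keap1 was divided between Keap1-205, at 58.9% ± 1.28 (SD, n = 3), and Keap1-201, at 34.25% ± 2.53. These start 261 bases apart and have the same coding exons, and transcripts with these coding exons made up 99.2% ± 0.48 of Keap1. Sqstm1-202 held 92% ± 2.27 of Sqstm1.

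Gclm was the most divided. Gclm-206, a coding transcript of 1002 bases, held 35.05, 52.4 and 42.7%, and Gclm-203, of 1088 bases with a shorter coding part, held 37.4, 27 and 28.5%, so that Gclm-203 led in replicate 1. Gclm-201, of 5589 bases, held 13.6, 12.1 and 13.9% of the abundance but 53, 48.9 and 54.6% of the counts of the gene. The transcripts with the coding exons of the whole modifier subunit, Gclm-206 and Gclm-201, together held 56.6% ± 7.91 (SD, n = 3). Gclc, in contrast, was Gclc-201 at 99.5% ± 0.872.

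In the thioredoxin arm, Txnrd1-201 held 68.2% ± 0.953, Txnrd1-208 20.1% ± 3.48 and Txnrd1-206 10.3% ± 2.57 (SD, n = 3). All 3 have the same coding exons and together held 98.6% ± 1.44. Txnrd1-205, which starts at the upstream end of the gene, held 0.12, 0.24 and 0.46%. Srxn1-201 held 96.6% ± 1.785.

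Prdx1 was divided between Prdx1-204, of 2294 bases, at 58.2% ± 0.278 and Prdx1-205, of 611 bases, at 39.9% ± 0.362. The annotation of Prdx1-205 ends inside the coding part, with 0 bases after it. In counts Prdx1-204 held 88, 87.6 and 88.3% of the gene. The second tables gave Prdx1-204 40.2% ± 3.23 and Prdx1-202, which has the same coding exons, 20.7% ± 7.29, in place of 0.347% ± 0.15, so the division within Prdx1 depended on the method. Of the 50-base stretches of Prdx1-204, 10.9% also occur in transcripts of other genes, mostly Gm21399 and Gm7204, which stood between 0.3 and 0.83 TPM.

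Transcripts annotated with a retained intron were found in 5 of the genes, and in 4 of these (Gclm, Txnrd1, Slc7a11 and Prdx1) their share was highest in replicate 3. Of 5295 genes with a mean of 1 TPM or more and such a transcript counted, 60.2% had the highest share in replicate 3, and the median share was 0.79, 0.69 and 1.61% in replicates 1, 2 and 3. The shares were 14, 6.18 and 35.5% for Slc7a11, 10.1, 7.12 and 12.8% for Gclm and 0.54, 0.29 and 2.61% for Txnrd1. For Slc7a11 the values rest on few counts, 9, 12 and 35 for Slc7a11-204 and 5, 4 and 12 for Slc7a11-202. Its coding transcript Slc7a11-201 held 86, 93.8 and 64.5%. Malat1, Neat1 and Rn7sk were also highest in replicate 3, unlike Tug1, and the part of nuclear RNA in these shares was not tested.

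Other genes that overlap the 10 were low. The highest was Gm38560, transcribed from the opposite strand at Txnrd1, at 0.78, 0.73 and 0.43 TPM, and the antisense gene Gm16754 at Keap1 had 0.14, 0.03 and 0.05 TPM. No strand setting is given, so reads of Keap1 and Gm16754 cannot be told apart with certainty, and 11.9% of the 50-base stretches of Keap1-205 also occur in Gm16754. In Slc7a11-201, 2.03% of 50-base stretches also occur in other genes, 558 in number. Among them is the abundant tubulin gene Tuba1b at 233, 160 and 198 TPM. The low level of Slc7a11 is therefore uncertain, and the share of stretches does not give the size of the error, which was not tested.

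Promoter sequences were examined for the letters of the antioxidant response element, because it is the sequence through which NRF2 acts on its targets. RefSeq windows of 250 bases before the start site (GRCm38.p6, the assembly of mm10) matched 9 of the 10 genes, all but Gclc, in 11 windows. The core was searched as TGACNNNGC and TGAGNNNGC on both strands. It was present in 6 of the 11 windows and 6 of the 9 genes, where 23% of 32851 windows of the same length in the table held either form. The windows of Keap1, Nqo1 and Sqstm1, and 2 further windows of Txnrd1, did not hold these letters. Sequence outside the 250 bases was not searched, so an element further away would be missed. The matches read GCACCGTCA in Gclm, TGACTCCGC in Nfe2l2 and GCTTTCTCA in Slc7a11.

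The windows of the thioredoxin arm are shown because each of its 3 genes holds a match. Capitals mark the matched letters, and each stretch runs 5′ to 3′ on the strand of the gene and ends before the most upstream annotated transcript start inside the window. Srxn1 is chr2:152105274-152105515 on the plus strand, Prdx1 is chr4:116685349-116685543 on the plus strand, and Txnrd1 is chr10:82858956-82859178 on the plus strand, the window next to the start of its leading transcripts Txnrd1-201 and Txnrd1-208.
Srxn1: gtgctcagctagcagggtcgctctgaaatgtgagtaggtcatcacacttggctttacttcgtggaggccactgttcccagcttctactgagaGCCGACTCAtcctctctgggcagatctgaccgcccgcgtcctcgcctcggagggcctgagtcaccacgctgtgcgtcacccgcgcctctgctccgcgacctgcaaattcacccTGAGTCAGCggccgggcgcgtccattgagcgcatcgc
Prdx1: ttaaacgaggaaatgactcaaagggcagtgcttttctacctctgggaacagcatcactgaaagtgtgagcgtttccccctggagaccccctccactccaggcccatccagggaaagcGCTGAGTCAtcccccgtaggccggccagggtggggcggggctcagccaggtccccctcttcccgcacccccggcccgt
Txnrd1: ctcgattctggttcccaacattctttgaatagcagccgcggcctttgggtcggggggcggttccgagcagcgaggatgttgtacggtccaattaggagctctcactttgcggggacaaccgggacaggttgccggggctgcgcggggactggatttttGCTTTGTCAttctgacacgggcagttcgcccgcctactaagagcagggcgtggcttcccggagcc
Srxn1 holds 2 matches, 158 to 150 and 45 to 37 bases before the RefSeq start. The Prdx1 match lies 133 to 125 bases and the Txnrd1 match 92 to 84 bases before it. The match of Srxn1 nearer the start and that of Prdx1 contain TGAGTCA, the letters of an AP-1 element, which 4.46% of all windows hold on either strand. Outside the marked matches, the Srxn1 window holds these letters again, and the Prdx1 window holds them on the opposite strand. A match of letters is a description of the sequence and does not show binding.

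Around these genes, the wider antioxidant network was broadly expressed. Of 107 genes in 6 lists, 82 stood above 1 TPM, 13 below, 6 were not placed and 6 were listed at 0 in all 3 libraries (limma, as above, beside 44.5% of all genes tested above). Genes listed at 0 are left out of that share, while the 6 remain among the 107. The median of the 107 genes was 12.7 TPM. The lists were chosen by known role.

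**Figure D4:**
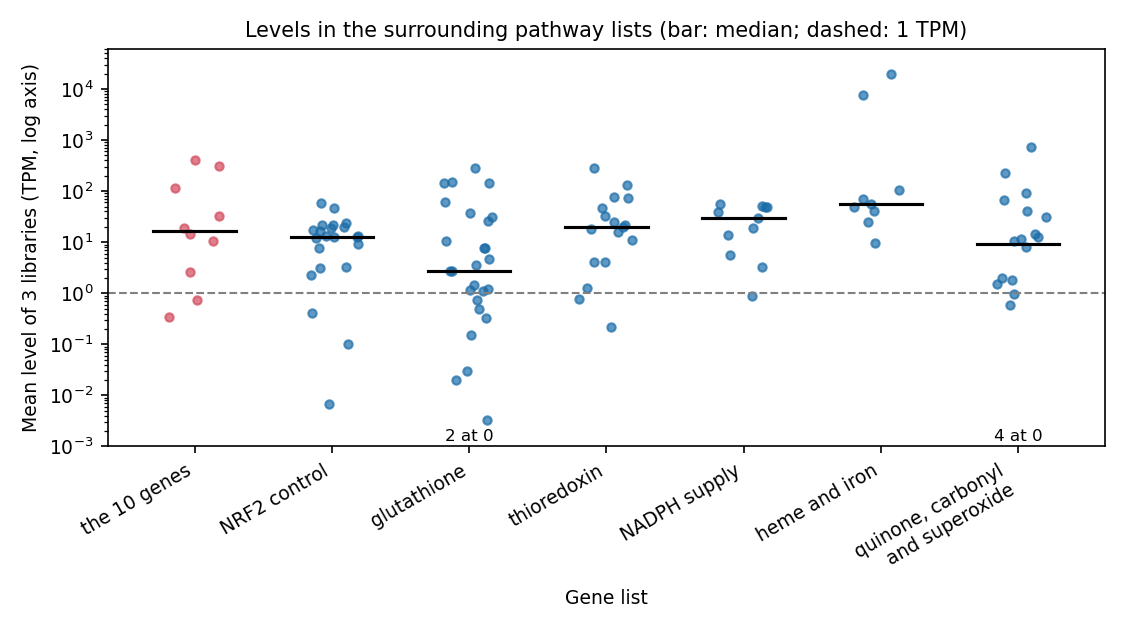
Mean level over 3 libraries (TPM, log axis) of the 10 genes (red) and of the genes of 6 pathway lists (blue), with black bars at the list medians and a dashed line at 1 TPM. Genes listed at 0 are given as counts at the bottom and enter the medians. All 9 genes of heme and iron lie above 1 TPM, while the glutathione list reaches down to 0.

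Among 22 genes that control NRF2 or share its binding sites, 19 stood above 1 TPM and 3 (Bach2, Nfe2l3 and Nfe2) below. The highest were Nfe2l1, a related factor that governs proteasome genes, at 57.9 ± 1.965 TPM (SD, n = 3), Rbx1 at 47.25 ± 8.74 and Cul3 at 23.55 ± 0.636, the RING and scaffold subunits of the ligase that KEAP1 serves. Cul3 was thus near the level of Keap1 and varied little, with 24.3, 23.2 and 23.15 TPM. Nfe2l3 was at 0, 0 and 0.02 TPM.

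Of 28 glutathione genes, 16 stood above 1 TPM, 7 below, 3 were not placed and 2, Gpx2 and Gsta1, were listed at 0. The highest were the peroxidase gene Gpx1 at 288 ± 44.3 TPM, the glutaredoxin gene Glrx at 152 ± 51.5 and Slc3a2 at 144 ± 7.71 (SD, n = 3). Glutathione S-transferases made up many of the low ones, with Gsta3, Gsta4, Gstm2 and Gstp2 below 1 TPM. Ggt1, which breaks down glutathione outside the cell, was lowest at 0, 0 and 0.01 TPM.

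Of 17 thioredoxin genes, 14 stood above 1 TPM. Prdx5 was highest at 288 ± 60.2 TPM, followed by Txn1, thioredoxin itself, at 135 ± 28.9 and Prdx2 at 78.3 ± 10.6 (SD, n = 3), and Prdx1, at 316 ± 48.2, was not apart from Prdx5 by more than the spread of either. Nucleoredoxin, Nxn, was lowest at 0.22 ± 0.07 TPM, and Txnrd3 was also below 1 TPM. Of 11 genes that supply NADPH, the reductant of this arm, 10 stood above 1 TPM, led by the NAD kinase gene Nadk at 57 ± 10 TPM, Taldo1 at 51.2 ± 5.33 and Pgd at 49.2 ± 2.36, enzymes of the pentose phosphate pathway. Me1, malic enzyme, was not placed at 0.87 ± 0.135 TPM.

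All 9 genes of heme and iron handling stood above 1 TPM. The ferritin subunit genes Fth1 and Ftl1 were by far the highest, at 17286 to 20400 TPM and 7199 to 8408 TPM over the libraries. Hmox1, heme oxygenase and a further target of NRF2, had 106, 83.15 and 122 TPM, with replicate 2 the lowest library, unlike Sqstm1, Txnrd1 and Srxn1. Fech, the final enzyme of heme synthesis, was the lowest of the list at 9.66 ± 0.66 TPM.

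Of 20 genes that detoxify quinones, carbonyls or superoxide, 14 stood above 1 TPM. Akr1a1, an aldehyde reductase, had 718 ± 145 TPM, the mitochondrial superoxide dismutase gene Sod2 227 ± 23.85 and the aldehyde dehydrogenase gene Aldh2 92.6 ± 9.45 (SD, n = 3). Low values were those of Ugt1a6a, a glucuronosyltransferase gene, at 0.587 ± 0.0252 TPM and Akr1b8, not placed at 0.97 TPM, and Aldh3a1, Ces1g, Ces2g and Sod3 were listed at 0. Nqo1, in this role, was lower than each of the measured genes of this list.

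Counts by highest library differed between the lists. In the list of NRF2 control genes, 17 of the 19 with a mean TPM of at least 1 were highest in replicate 1, as were 67.8% of all such genes, and 1 was highest in replicate 2. By TPM, 8 of 19 glutathione, 3 of 15 thioredoxin, 5 of 10 NADPH, 2 of 9 heme and iron and 7 of 14 detoxification genes were highest in replicate 2, beside 21.1% of genes. Over coding genes these counts were 12, 8, 5, 3 and 9, and 4 of 19 for the control list, beside 39.4% of genes.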

How the data were processed

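Per library, 1 table of genes and 2 of transcripts were deposited, on mm10 with GENCODE M21, per the labels and the deposited notes. Expected counts and TPM per gene and transcript, and transcript shares in percent of the gene, are the authors' values, per the file headers. No aligner, quantifier, version or strand setting is given in the sources used here.

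All 55536 genes matched the annotation, and 26345 entries that are not genes (0.378, 0.0931 and 0.0772% of counts) were left out. Levels were tested with limma 3.58.1 (R 4.3.3) on log2(TPM + 1), with robust moderation and a mean-variance trend, over genes listed above 0 TPM in a library. Noise was tested by chi-square on rounded expected counts with a sum of at least 30. The coefficient of variation was computed over TPM. TMM scaling used edgeR 4.0.16 and size factors DESeq2 1.42.0. The scripts were tested on simulated data. Other steps used pandas 2.3.3, numpy 2.4.6, scipy 1.17.1 and matplotlib 3.10.9.

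The genes, lists and tests were chosen with earlier results of these data known. Genes named were the 10 members, the 3 highest and the lowest measured gene of each pathway list, Malat1, Neat1 and Rn7sk, and the 3 genes most like Nfe2l2. Counts by highest library, and other genes named in the text, were chosen after their values were seen.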

Additional observations from a re-analysis of the deposited data

How the results depend on the processing

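With 1 group, no comparison between conditions was possible. No paired analysis was possible because all libraries belong to 1 group. The number of the 10 genes above 1 TPM was 8, and 7 to 9 under the alternatives. The number below was 1, and became 2 with a pseudocount of 0.1, 3 at a level of 5 TPM, 2 in the second tables, 0 after rescaling over nuclear protein-coding genes, and 1 to 2 with each replicate left out. Rescaling turned the direction of Slc7a11 to 0.76 and of Nqo1 to 0.08 on the log2(TPM + 1) scale, while the level stayed at 1 TPM. It raised all coding genes of a library by the same factor, with the mean of Nfe2l2 going from 115.5 to 379.6 TPM. In the second tables each of the 10 had a lower mean TPM, with Nfe2l2 at 51.4 TPM. The difference of Gclm and Gclc moved to 1.97 with a pseudocount of 0.1, 1.58 in the second tables and 1.89 after rescaling. The leading transcript was the same for all 10 genes under each alternative, though the second tables lowered the share of Keap1-205 to 53.9%, Txnrd1-201 to 53.2% and Prdx1-204 to 40.2%. Pathway genes above the level numbered 82, and 67 to 92 under the alternatives. Shares of all genes above or below the level are given for the main setting only. The counts under the alternatives therefore stand without a matching share. Of the 10 genes, 6 to 8 varied beyond noise with a replicate left out, where 51.3 to 53.9% of all genes tested did, against 69.3% with all 3. The depth of Nqo1, 32 to 41 counts, limits what can be said of its spread.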

Other observations

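Partners and competitors of NRF2 at its binding sites differed in their high library, in a choice of genes made after their values were seen. Maff, a small Maf gene, had 12.9, 19.65 and 7.31 TPM in replicates 1, 2 and 3, highest and lowest in the same libraries as Sqstm1 and Txnrd1. Mafk, another small Maf gene, had 9.97, 6.62 and 6.38 TPM, and Bach1, whose product represses Hmox1, had 28.5, 18.7 and 17.7 TPM, both highest in replicate 1, as were 67.8% of genes with a mean of 1 TPM or more. Mafg had 12.6, 11.6 and 11.2 TPM. With 3 libraries these are values only.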
